A study of Mus musculus with 15 samples.

Results

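The collagen genes outside the cartilage set are the 39 genes of the deposited tables whose symbol has the form of a collagen alpha chain, less the 5 chains best known from cartilage (Col2a1, Col9a1, Col9a2, Col9a3 and Col11a2). They were chosen by symbol alone, out of 44 collagen chains and 24421 genes, and comprise 9 fibrillar chains, 8 basement membrane chains and 22 others. Their expression was measured by poly(A) RNA-seq of mouse brain tumour tissue in 15 libraries, 3 in each of 5 groups. The groups were EPN Sox9-GOF, EPN control, HGG Sox9-LOF, HGG Sox9-GOF and HGG control. EPN is the usual abbreviation of ependymoma and HGG of high-grade glioma, LOF and GOF those of loss and gain of function. The labels give a group to each library and no more: strain, age, the oncogenic events, the way Sox9 was altered, the cells it was altered in and the number of animals are not stated in them. P-values therefore measure the spread between these libraries, which may be technical. The study's title concerns divergent effects of the transcription factor Sox9, a regulator of both glia and cartilage, on brain tumour subtypes.

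Levels below are normalized counts, that is reads of a gene divided by a size factor that puts the 15 libraries on 1 scale. Sox9, the altered gene, was at 2055, 1834 and 2692 in EPN Sox9-GOF, against 1045, 1040.2 and 1189 in EPN control libraries. With the label Sox9-LOF it was at 739, 579 and 395, and with Sox9-GOF at 1276, 1537 and 1391, against 218, 285 and 310.3 in HGG controls. Both GOF groups lay above their controls. The libraries labelled Sox9-LOF also lay above the HGG controls, which goes against a loss of the transcript. Gene counts do not show whether such a transcript still makes protein. The 9 HGG libraries had 919.85 to 4557.5 of Olig2, a factor of the oligodendrocyte lineage, where the 6 EPN libraries had 57.6 to 375. Foxj1, a factor of ciliated ependymal cells, was no higher in EPN (12.5 to 129.9) than in HGG (68.9 to 286).

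Collagens are trimers of alpha chains wound into a helix, secreted into the extracellular matrix and cross-linked there. Fibrillar chains build the banded fibres of connective tissue, and type IV, XV and XVIII chains belong to the basement membrane on which endothelial cells, pericytes and astrocyte endfeet rest. The others include beaded filaments (type VI), anchoring fibrils (type VII), short-chain networks (type VIII), chains that coat fibres (types XII, XIV, XVI and XX) and chains that span the cell membrane (types XIII, XXIII and XXV). In the healthy brain, fibrillar collagen is largely confined to the meninges, the choroid plexus and the walls of larger vessels, and the parenchyma holds little outside its vascular basement membranes.

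The 3 HGG control libraries were unlike each other in collagen, and every comparison with HGG controls rests on them. HGG control 2, the shallowest library (4665428 reads, where the others had up to 14119140), held the highest value of the 9 HGG libraries for 16 of the 39 members, 7 of them fibrillar, where 18.1% of all genes tested peaked in it. In it 8 members reached at least 5 times the highest of the other 8 HGG libraries, as 0.417% of all genes did. These were Col3a1, Col28a1, Col15a1, Col6a3, Col14a1, Col5a2, Col1a2 and Col27a1. Col3a1, the type III chain of elastic tissues and vessel walls, was at 252, 9876 and 309.6 in HGG controls 1, 2 and 3. Its other HGG libraries lay between 97.0 and 394, and its EPN libraries between 1225 and 3892. Col28a1, a small chain known from peripheral nerve, was at 56.3, 3099.8 and 5.68 in the HGG controls, against 5.74 to 138 in the other HGG libraries and 9.51 to 97.0 in EPN. These genes are named after their values were seen. The 16 fibroblast and meninges markers summed to 8619 in HGG control 2 and to 4486 and 3332 in HGG controls 1 and 3, of which Pdgfra, also a gene of glial tumours, gave 7184, 2695 and 1169 in the same order. The other 15 summed to 1435 in HGG control 2 and to 1791 and 2163 in HGG controls 1 and 3. Among them Islr was at 1005 in HGG control 2 and 401 and 472 in HGG controls 1 and 3, and Dcn at 22.6 and at 344 and 480. HGG control 1 had the highest HGG value for 8 members and 105040 of Ttr, the carrier protein gene of the choroid plexus, against 111 and 10.7 in the other HGG controls. The part of such tissue in the collagen values was not tested.

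Upstream sequences are shown for Col3a1 and Col28a1, far higher in HGG control 2 than in the other HGG libraries, and for Col23a1 and Col11a1. The latter pair was higher in all EPN libraries than in any HGG library. Col3a1, too, was high in EPN, so the pairs are no clean contrast. The sequences are the 250 bases before the annotated start (RefSeq promoter table, GRCm38.p6), 5′ to 3′ on the gene's strand, with motif matches in capitals. The motifs searched, on both strands, were the TATA box TATAAA, the box CCAAT, the GC box GGGCGG and the short SOX cores AACAAT and ACAAAG.
Col3a1: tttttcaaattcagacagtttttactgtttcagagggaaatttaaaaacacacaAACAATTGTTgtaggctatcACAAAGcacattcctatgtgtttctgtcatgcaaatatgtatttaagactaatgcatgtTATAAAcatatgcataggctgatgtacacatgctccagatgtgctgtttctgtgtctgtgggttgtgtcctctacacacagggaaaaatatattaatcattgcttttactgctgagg
Col28a1: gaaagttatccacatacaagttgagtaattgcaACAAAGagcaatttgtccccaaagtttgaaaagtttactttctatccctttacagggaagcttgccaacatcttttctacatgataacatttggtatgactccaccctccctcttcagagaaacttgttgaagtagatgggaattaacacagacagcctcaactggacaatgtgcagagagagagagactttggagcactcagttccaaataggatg
Col23a1: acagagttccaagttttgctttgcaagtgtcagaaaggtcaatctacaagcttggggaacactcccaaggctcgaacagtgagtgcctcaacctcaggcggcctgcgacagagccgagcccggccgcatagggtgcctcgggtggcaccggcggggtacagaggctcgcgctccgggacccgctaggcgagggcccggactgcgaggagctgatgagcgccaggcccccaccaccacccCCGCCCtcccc
Col11a1: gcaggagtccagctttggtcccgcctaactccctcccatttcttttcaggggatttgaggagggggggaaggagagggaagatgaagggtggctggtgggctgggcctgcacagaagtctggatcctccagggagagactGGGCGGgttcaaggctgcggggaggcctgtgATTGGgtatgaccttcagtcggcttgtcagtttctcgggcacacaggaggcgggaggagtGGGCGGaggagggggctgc
Col3a1 (chr1:45311288-45311537, plus strand) and Col28a1 (chr6:8192618-8192867, minus strand) have 35.2% and 40.4% G and C here, where Col23a1 (chr11:51289670-51289919, plus strand) and Col11a1 (chr3:114030290-114030539, plus strand) have 66.0% and 62.4%. Col15a1 and Col1a2, also named above for HGG control 2 and not shown, have 53.6% and 62.0%. A low share was thus not common to the members far higher in HGG control 2 than in the other HGG libraries. In Col3a1 the capitals are AACAAT and its overlapping reverse complement 196 and 192 bases before the start, ACAAAG at 176 and TATAAA at 117. In Col28a1 they are ACAAAG, 217 bases before the start. In Col11a1 they are GGGCGG at 110 and 19 and the reverse complement of CCAAT at 79, and in Col23a1 the reverse complement of GGGCGG at 11. Of 32 members with a promoter entry, 20 held GGGCGG, 12 CCAAT, 5 ACAAAG, 4 TATAAA and 1 (Col3a1) AACAAT, in windows of 300 bases that run 50 past the start. Over the 32851 windows of all genes in the table the shares were 35.7% for GGGCGG, 37.4% for CCAAT, 18.7% for ACAAAG, 13.6% for TATAAA and 10.7% for AACAAT. A match describes these letters and is not a binding site.

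Collagen made up a larger part of the RNA in EPN than in HGG in all classes. The 39 genes together took 1.12%, 0.671% and 0.862% of the gene reads in EPN Sox9-GOF and 0.763%, 1.02% and 0.815% in EPN control libraries. They took 0.0652%, 0.106% and 0.0973% with the label Sox9-LOF, 0.0730%, 0.0870% and 0.0734% in HGG Sox9-GOF, and 0.237%, 0.692% and 0.0923% in HGG controls. Among the HGG libraries, controls 1 and 2 came above all 6 GOF and LOF libraries, and HGG control 2 alone passed the lowest EPN library. Fibrillar chains averaged 0.328% ± 0.109 in EPN Sox9-GOF and 0.375% ± 0.0986 in EPN controls, against 0.0253% ± 0.00877 with the label Sox9-LOF, 0.0237% ± 0.00495 in HGG Sox9-GOF and 0.148% ± 0.199 in HGG controls (SD, n = 3 each). Basement membrane chains averaged 0.344% ± 0.0731 and 0.291% ± 0.0372 in the EPN groups, in the same order, and 0.0290% ± 0.0042, 0.0200% ± 0.00446 and 0.0901% ± 0.0722 in those of HGG. The SD of the HGG controls exceeded their mean for the fibrillar chains. In bulk tissue, fewer cells of a type and less RNA per cell cannot be told apart.

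**Figure D1:**
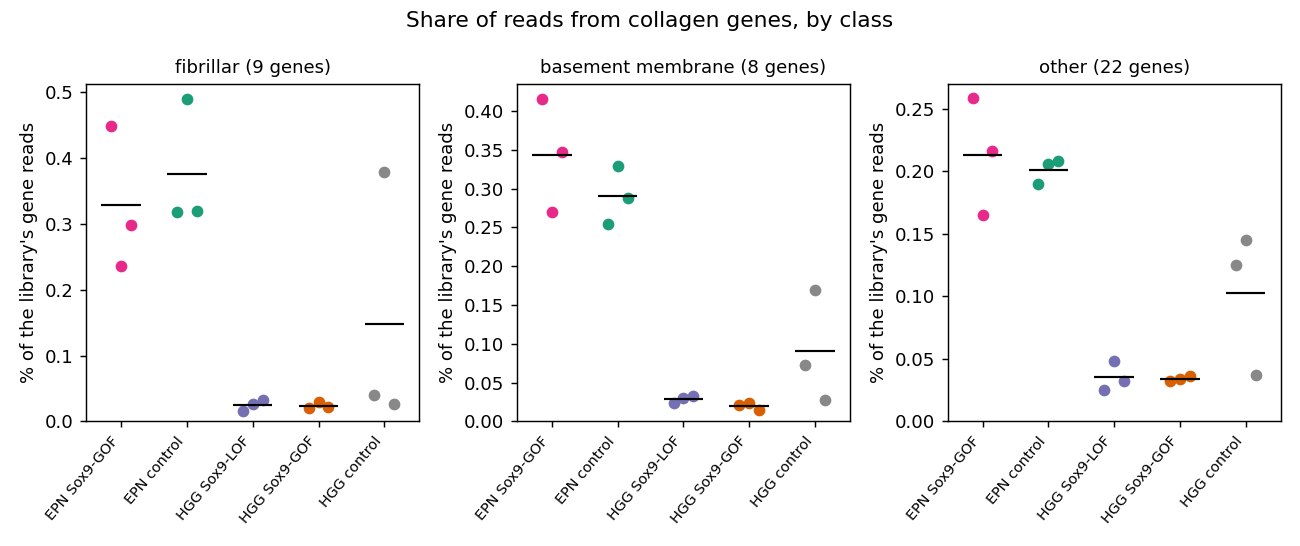
Share of each library's gene reads taken by the fibrillar, basement membrane and other chains (vertical axis, percent; 1 panel a class; points are libraries, lines are group means). All 6 EPN libraries sit above all 9 HGG libraries in the basement membrane and other panels, and HGG control 2 is within the EPN range in the fibrillar panel (0.378%).

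By level per kilobase of transcript over the 15 libraries, the order was led by Col1a1 (1082), Col18a1 (1034), Col16a1 (834) and Col4a1 (783), followed by Col4a2 (537), Col1a2 (475), Col3a1 (351), Col5a2 (307), Col14a1 (291) and Col11a1 (267). A mean of at least 10 normalized counts was reached by 32 members in EPN Sox9-GOF, 36 in EPN control, 35 with the label Sox9-LOF, 34 in HGG Sox9-GOF and 34 in HGG control libraries. Col6a4 and Col17a1 stayed under this level in all groups. Col10a1, the chain of hypertrophic cartilage, was at 0, 1.14 and 284 in the libraries labelled Sox9-LOF and at 0 to 5.76 in the other 12, so that its level rests on 1 library.

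**Figure D2:**
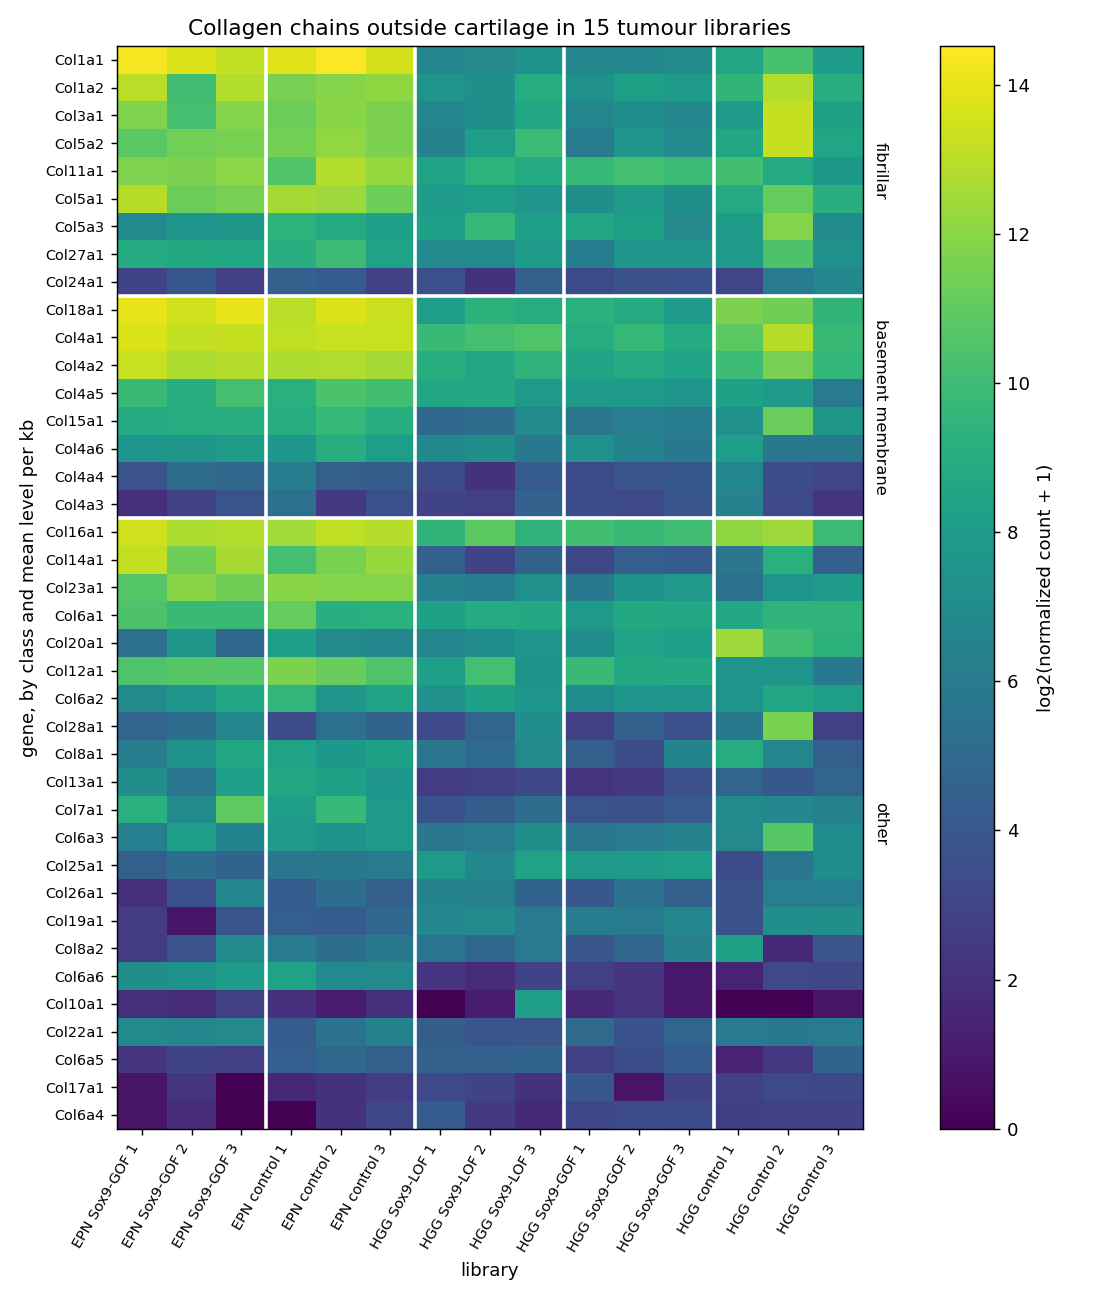
Heat map of the 39 chains (rows, grouped as fibrillar, basement membrane and other) in the 15 libraries (columns, by group), coloured by log2(normalized count + 1). The EPN columns are brighter across most fibrillar and basement membrane rows, and HGG control 2 stands out among the HGG columns.

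EPN controls were compared with HGG controls to ask how the tumour types differ without an altered Sox9. Chains of all classes were higher in EPN, and those with the smallest p were Col13a1, Col1a1, Col12a1, Col23a1, Col6a6 and Col4a2. In limma (trended variance, log2 of the normalized count + 1, Benjamini-Hochberg adjustment over 15105 genes, threshold 0.05), 10 of the 36 members tested were higher and 1 lower, where 9.51% of all genes tested were called higher and 5.83% lower. The higher ones were 2 fibrillar chains (Col1a1 and Col11a1), 3 of the basement membrane (Col4a2, Col4a5 and Col18a1) and 5 others (Col6a6, Col12a1, Col13a1, Col14a1 and Col23a1). Of these, Col6a6 passed the filter on low values through EPN controls alone. Col20a1, a fibril-associated chain, was the lower one and is named after its value was seen. The median log2 fold change was 1.44 over the members and 0.0025 over all genes. It was 1.62 for fibrillar chains (7 of 9 above 0), 1.83 for basement membrane chains (7 of 8) and 1.10 for the others (13 of 19). The libraries of both groups did not overlap for 14 higher members (21.9% of genes) and 1 lower (18.4%). DESeq2 on the recovered reads called 12 higher (13.0% of genes) and 1 lower (12.4%), and without HGG control 2 it called 19 higher (12.4%) and 1 lower (10.7%). The limma calls depended on single libraries, with 14 higher members without HGG control 2, 12 higher and 4 lower without HGG control 1, and 5, 3 and 5 calls in all without EPN control 1, 2 and 3. With the replicate number as a block the calls were 7. Correcting the libraries for GC content and transcript length left 9 higher and 0 lower. The shares of all genes called in these altered limma fits are not given here. The shifts in the counts can therefore not be read as particular to collagen.

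The same comparison between the Sox9-GOF libraries, which leaves out the HGG controls, was added after the values had been seen. Here limma called 23 of 33 members higher in EPN Sox9-GOF and 2 lower, where 19.6% of all genes were called higher and 21.2% lower. The higher members were 7 of 8 fibrillar chains (Col1a1, Col1a2, Col3a1, Col5a1, Col5a2, Col11a1 and Col27a1) and 6 of 7 basement membrane chains (Col4a1, Col4a2, Col4a5, Col4a6, Col15a1 and Col18a1). Among the others they were 10 of 18 (Col6a1, Col6a6, Col7a1, Col12a1, Col13a1, Col14a1, Col16a1, Col22a1, Col23a1 and Col28a1). The lower members, Col19a1 and Col25a1, are a fibril-associated and a membrane-spanning chain. The median log2 fold change was 2.33 over the members and 0.04 over all genes, and 4.26, 2.94 and 1.77 for the fibrillar, basement membrane and other chains. The background of groups that do not overlap was 27.8% higher and 27.2% lower. Col6a6 (in both comparisons) and Col13a1 (here) passed the filter on low values through EPN alone, and Col19a1 (here) through HGG Sox9-GOF alone (mean 6.13 in EPN Sox9-GOF and 77.5 in HGG Sox9-GOF). The direction of their difference was set by the filter, and their calls, which the counts include, are no evidence of one. Taking all Sox9 states together, the 6 EPN libraries lay above all 9 HGG libraries for 14 members (9.96% of 15645 genes), Col6a6 and Col13a1 among them. They lay below all 9 HGG libraries for 0 members (7.4%). Without HGG control 2 these were 19 (11.0%) and 0 (7.96%). The 5 that joined were Col1a2, Col3a1, Col5a2, Col15a1 and Col27a1.

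**Figure D3:**
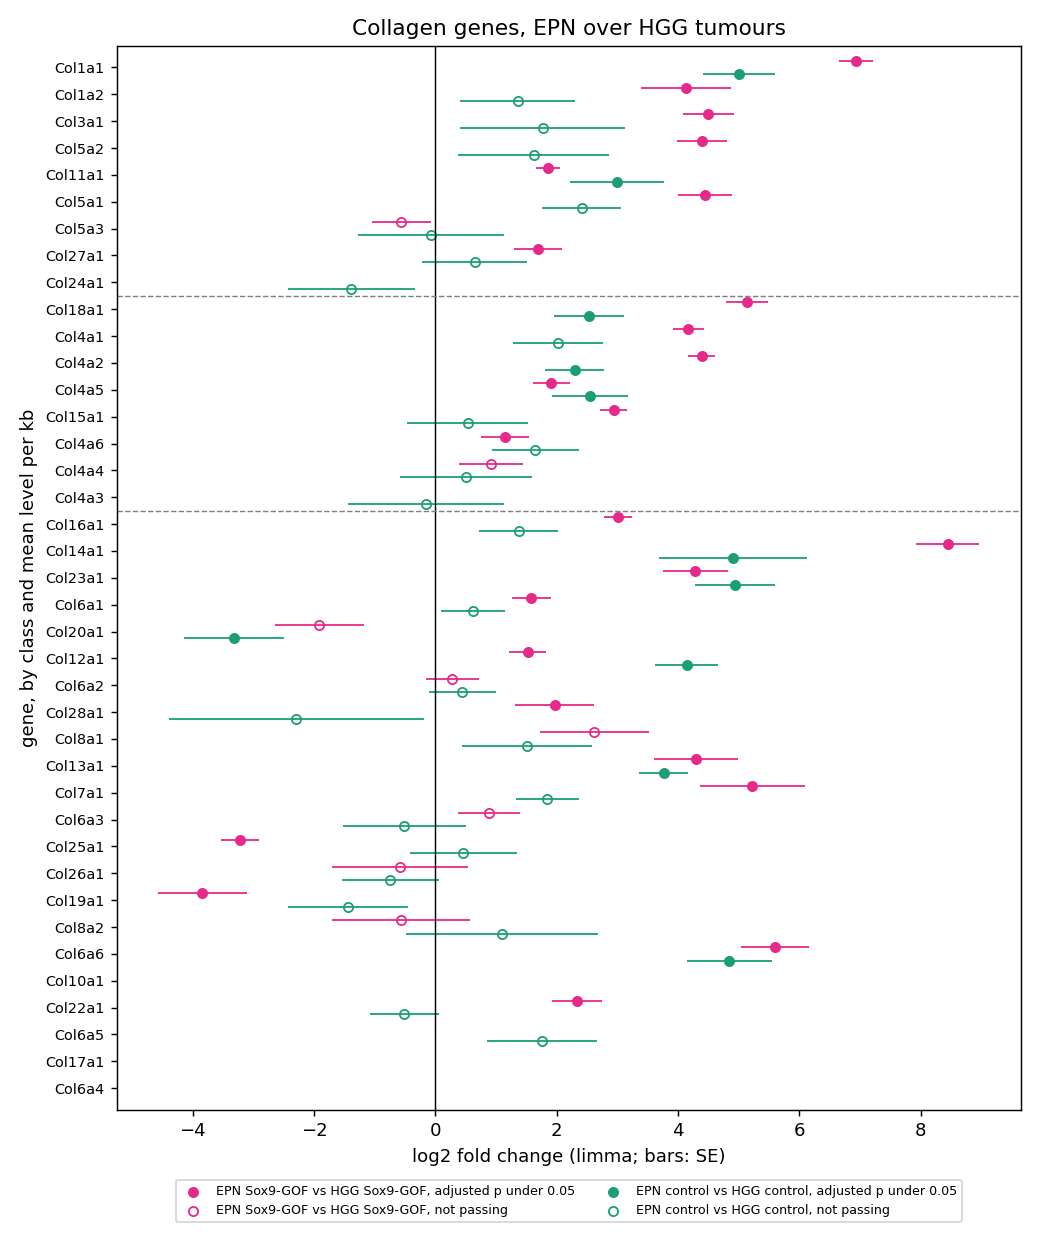
Log2 fold change of each chain, EPN over HGG (horizontal axis; bars are standard errors), in the Sox9-GOF libraries and in the controls; filled points pass an adjusted p of 0.05 in limma. Most chains lie to the right of 0 in both pairs.

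Among the fibrillar chains, Col1a1 (chr11:94936224-94953042, plus strand), the alpha 1 chain of type I collagen of bone, skin and scar, separated the models most plainly. Col1a1 was at 20343, 13540.5 and 9499 in EPN Sox9-GOF and 14457, 23475 and 12314 in EPN control libraries. In HGG it was at 104, 114 and 176 with the label Sox9-LOF, 105, 106 and 126 with Sox9-GOF and 383, 1246 and 264 in controls. All 6 EPN libraries were above all 9 of HGG, where HGG control 2 was the highest. The log2 fold change was 5.0 (SE 0.59, adjusted p = 0.00606) between the controls, a 32.0-fold difference, and 6.93 (SE 0.28, adjusted p = 2.7e-05) between the Sox9-GOF libraries. Its partner chain Col1a2 (chr6:4504814-4541544, plus strand) was less even. Col1a2 was at 8246, 1055 and 7369.6 in EPN Sox9-GOF and 2988, 3755 and 4432 in EPN control libraries. In HGG it was at 185, 152 and 514 with the label Sox9-LOF, 157, 299 and 249 with Sox9-GOF and 712, 7395 and 566 in controls. One EPN Sox9-GOF library was far below the others of its group, and HGG control 2 was in the EPN range. Between the controls Col1a2 differed by 1.35 (SE 0.95, adjusted p = 0.361), and by 2.53 (adjusted p = 0.0065) without HGG control 2. Between the Sox9-GOF libraries it differed by 4.13 (SE 0.74, adjusted p = 0.00365). The type V chain Col5a1, which starts fibres, was at 2480.1 to 7989 in EPN and at 149 to 2185 in HGG libraries. Col11a1, its type XI relative, was at 1551 to 7426 in EPN and at 209.5 to 1179 in HGG libraries. Col24a1 was low everywhere, at 5.76 to 21.1 in EPN and 3.4 to 109 in HGG libraries.

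In type I collagen the balance of the chains also differed. The ratio of Col1a1 to Col1a2 per kilobase was 2.23, 11.6 and 1.16 in EPN Sox9-GOF and 4.36, 5.64 and 2.51 in EPN control libraries. It was 0.508, 0.673 and 0.308 with the label Sox9-LOF, 0.601, 0.319 and 0.457 in HGG Sox9-GOF and 0.486, 0.152 and 0.421 in HGG controls. Every EPN library had more Col1a1 than Col1a2 and every HGG library had less, HGG control 2 included. The geometric mean was 3.5 over the 6 EPN and 0.404 over the 9 HGG libraries, pooled over the Sox9 groups, a log2 difference of 3.12. The exact two-sided permutation p was 0.0002, the smallest that 6 against 9 libraries can give, and 0.00719 after adjustment over the 36 chain ratio tests made. With 3 against 3 libraries the smallest p is 0.1, so that no single pair of groups could pass. Of the other chain pairs, Col4a4 over Col4a3 was 2.52 in EPN and 0.954 in HGG (exact permutation p = 0.000799, adjusted 0.0144), with ranges that overlap and at low counts. Col6a1 over Col6a2 was 4.04 in EPN and 2.32 in HGG (exact permutation p = 0.0146, adjusted 0.175), and the ratios Col4a1 over Col4a2, Col4a5 over Col4a6 and Col5a1 over Col5a2 had adjusted p of 0.45, 0.484 and 0.645.

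**Figure D4:**
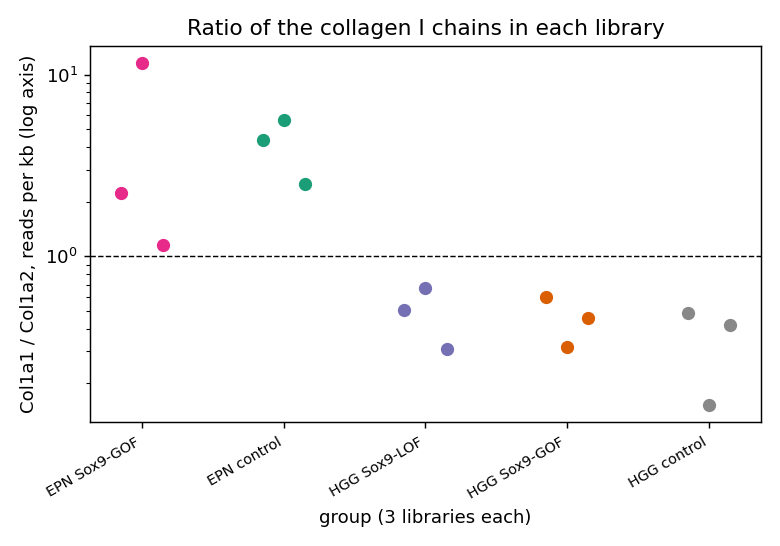
Ratio of Col1a1 to Col1a2 per kilobase of transcript in each library (vertical log axis; dashed line at equal levels). All 6 EPN libraries are above the line (1.16 to 11.6) and all 9 HGG libraries below it (0.152 to 0.673).

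Of the basement membrane chains, the common type IV pair and type XVIII carried most of the reads. Col4a1 and Col4a2 lie head to head on chromosome 8, with annotated starts that overlap by 22 bases, and their chains join in 1 trimer found in nearly all basement membranes. Col4a1 was at 13437, 9165 and 9868 in EPN Sox9-GOF and 9037, 10115 and 9896 in EPN control libraries. In HGG it was at 892, 1183 and 1496 with the label Sox9-LOF, 515, 819.7 and 493 with Sox9-GOF and 1873, 7969 and 904 in controls. For its partner, Col4a2 was at 10179, 6724 and 7615 in EPN Sox9-GOF and 6825, 7011 and 5976 in EPN control libraries. In HGG it was at 521, 412 and 699 with the label Sox9-LOF, 362, 469.7 and 331 with Sox9-GOF and 1006, 2997 and 797 in controls. Both were high in every EPN library, and HGG control 2 was the highest HGG library for both. Col4a2 differed by 2.30 (SE 0.49, adjusted p = 0.0279) between the controls and by 4.39 (SE 0.23, adjusted p = 5.4e-05) between the Sox9-GOF libraries. Col4a1 differed by 2.02 (SE 0.74, adjusted p = 0.114) between the controls, by 2.89 (adjusted p = 0.01) without HGG control 2, and by 4.17 (SE 0.26, adjusted p = 9.5e-05) between the Sox9-GOF libraries. Col18a1 (chr10:77052178-77166548, minus strand) encodes the collagen chain, a carrier of heparan sulfate, from which endostatin is cut. Col18a1 was at 17060.4, 11169 and 16964 in EPN Sox9-GOF and 8160.1, 13869 and 10285 in EPN control libraries. In HGG it was at 270.1, 646 and 522 with the label Sox9-LOF, 607, 484 and 251 with Sox9-GOF and 3189.5, 2612 and 728 in controls. It differed by 2.53 (SE 0.57, adjusted p = 0.0337) between the controls and by 5.14 (SE 0.35, adjusted p = 0.000116) between the Sox9-GOF libraries. Col15a1, its relative of vessel walls, was at 464 to 799 in EPN and at 29.2 to 201 in HGG libraries other than HGG control 2, which had 2321.

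The restricted type IV chains were lower. Col4a5 was at 548.5 to 1366 in EPN and 65.3 to 442 in HGG libraries, without overlap, and Col4a6 at 187 to 521 in EPN and 55.3 to 284 in HGG libraries. The kidney-type chains Col4a3 and Col4a4 stayed at 2.88 to 66.5 in EPN libraries, and in HGG they were at most 22.3 outside HGG control 1, where they were at 87.3 and 107. Col4a4 and Col4a3, too, are divergent neighbours. The 71 bases between their annotated starts (chr1:82586850-82586920, minus strand, 69.0% G and C) hold none of the motifs searched and are shown because both chains peaked in the same library.
Col4a4 to Col4a3: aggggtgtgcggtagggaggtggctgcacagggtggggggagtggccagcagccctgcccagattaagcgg
The remaining pair of this kind, Col4a6 and Col4a5, is 1308 bases apart.

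Of the others, the fibril-associated chains Col14a1, Col16a1 and Col12a1 reached high levels in EPN. Col14a1 (chr15:55307750-55520803, plus strand) encodes a chain on the surface of type I fibres. Col14a1 was at 9333, 2606 and 6211 in EPN Sox9-GOF and 1154, 3145 and 4961 in EPN control libraries. In HGG it was at 21.0, 6.81 and 23.4 with the label Sox9-LOF, 7.90, 20.5 and 17.5 with Sox9-GOF and 52.4, 582 and 20.6 in controls. It was low in HGG apart from HGG control 2, and differed by 4.90 (SE 1.22, adjusted p = 0.0436) between the controls, by 6.27 without HGG control 2 and by 8.45 (SE 0.52, adjusted p = 9.1e-05), or 349-fold, between the Sox9-GOF libraries. Col16a1, a chain of skin and nervous tissue, was at 11179.9, 6839 and 7477 in EPN Sox9-GOF and 5752, 9081 and 7625 in EPN control libraries, against 698 to 5398 in HGG. Its difference was 1.37 (SE 0.65, adjusted p = 0.196) between the controls and 3.02 (SE 0.23, adjusted p = 0.000143) between the Sox9-GOF libraries. Col12a1 was at 1460.0, 1748 and 1661 in EPN Sox9-GOF and 3163, 2300.2 and 1461 in EPN control libraries, against 183, 178 and 58.2 in HGG controls, and differed by 4.14 (SE 0.51, adjusted p = 0.00661) between the controls.

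Membrane-spanning chains moved in both directions. Col23a1 was at 1578, 3916 and 2625 in EPN Sox9-GOF and 3902, 3752 and 3740.0 in EPN control libraries, against 39.7 to 256 in HGG, and differed by 4.93 (SE 0.66, adjusted p = 0.00786) between the controls. Col13a1, known from neuromuscular junctions, was at 423, 319 and 199 in EPN controls, against 25.4, 14.4 and 25.6 in HGG controls, and differed by 3.77 (SE 0.40, adjusted p = 0.00511). Col25a1, a chain of neurons, was one of the lower members in EPN Sox9-GOF, at 20.2, 36.6 and 24.0, against 238, 240.0 and 281 in HGG Sox9-GOF. Type VI chains were uneven. Col6a6 was at 116 to 337 in EPN and 0.877 to 8.20 in HGG libraries. It passed the filter on low values through EPN alone (mean 192.5 in EPN controls and 5.87 in HGG controls). The direction of its difference was thus set by the filter. Col6a1 and Col6a2, the short chains of every type VI filament, overlapped between the models. Col20a1 was at 292, 121 and 106 in EPN controls, against 5481, 1087 and 638 in HGG controls, and it was called lower (adjusted p = 0.0433). Its highest value was in HGG control 1.

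Some genes that make and cross-link collagen were also higher in EPN. Of 33 listed (hydroxylases, chaperones, propeptide proteases and lysyl oxidases), 31 were tested between the controls, and 9 were higher in EPN and 0 lower, where 9.51% and 5.83% of all genes were. Between the Sox9-GOF libraries 21 of 32 were higher and 3 lower, where 19.6% and 21.2% of all genes were. Loxl2, a lysyl oxidase that cross-links type IV collagen, was at 6413, 3760.3 and 6063 in EPN Sox9-GOF and 6592, 5637 and 4138 in EPN controls, against 22.3, 88.8 and 26.3 in HGG Sox9-GOF and 334, 207 and 44.7 in HGG controls. Its log2 difference was 5.19 (adjusted p = 0.00853) between the controls and 7.10 (adjusted p = 0.000124) between the Sox9-GOF libraries. Adamts2, which trims fibrillar procollagen, differed by 5.31 (adjusted p = 0.00371) between the controls, Loxl1 by 3.18 (adjusted p = 0.00538) and Crtap, a prolyl hydroxylation partner, by 2.09 (adjusted p = 0.00765). Of 8 collagen receptors tested, 3 were higher in EPN controls than in HGG controls and 0 lower, against the same 9.51% and 5.83%. They were Mrc2, an endocytic receptor (4.28), Ddr1, a receptor kinase (2.14), and Itga11, an integrin chain of fibroblasts (3.46).

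Markers of cells that make collagen in the brain were measured as well. Between the controls 8 of 14 endothelial, 4 of 14 pericyte and smooth muscle and 5 of 14 fibroblast and meninges markers were higher in EPN and 0 lower, where 9.51% and 5.83% of all genes were. Between the Sox9-GOF libraries these were 10 higher and 1 lower of 14, 2 and 1 of 13, and 5 and 4 of 14, where 19.6% and 21.2% of all genes were, so that those of the last 2 lists were not far from the background in both directions. The pericyte receptor Pdgfrb was at 2000.5 to 3096 in EPN and 109 to 242 in HGG libraries. Its list did not follow it throughout. Between the controls 11 of 14 had values above 0 (median 0.94), and between the Sox9-GOF libraries 5 of 13 (median -0.16). The marker called lower there was Cspg4 (-2.23). The endothelial cadherin Cdh5 was at 405 to 660 in EPN and 66.0 to 161 in HGG libraries. Summed over the list, endothelial markers were at 3220 to 6242 in EPN Sox9-GOF and 6445 to 7571 in EPN controls, against 1788 to 3071 with the label Sox9-LOF, 1659 to 3104 in HGG Sox9-GOF and 1775 to 3919 in HGG controls. Fibroblast and meninges markers summed to 5026 to 8203 in EPN Sox9-GOF and 7896 to 11270 in EPN controls, against 5014 to 8746, 5282 to 11151 and 3332 to 8619 in the HGG groups, in the same order. In the HGG libraries other than HGG control 3 (1169 of 3332) most of this sum was Pdgfra. Pdgfra was at 1169 to 9401 in HGG and 409 to 1362 in EPN libraries. The 15 markers without it, a sum added after the values had been seen, came to 4006 to 7794 in EPN Sox9-GOF and 6762 to 9908 in EPN controls, against 1062.5 to 1715, 1749.5 to 2329 and 1435 to 2163 in the HGG groups, without overlap between the models. Pericyte and smooth muscle markers summed to 3828 to 4543 and 4699.9 to 6010.3 in the EPN groups, and to 2583 to 3044, 2358 to 3462 and 3061 to 4408 in the HGG groups. Of 12 choroid plexus markers 0 were higher and 1 lower in EPN than in HGG controls, and 3 of 11 were higher and 1 lower between the Sox9-GOF libraries. Their sums were uneven, at 1528.5 to 4404 and 3168 to 3505 in the EPN groups, and 352 to 25314, 189 to 10236 and 356 to 113050 in the HGG groups. No listed marker of these cells was at 0 in all libraries. Their part in the collagen difference was not tested.

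The libraries labelled Sox9-LOF were compared with HGG controls to ask what the alteration of Sox9 did to collagen in HGG. Most chains had lower values in the libraries labelled Sox9-LOF, and none passed the test. Limma called 0 of 36 members and 0.0% of 14861 genes, and edgeR 0 members and 0.0% of genes. At an unadjusted p under 0.05, limma had 10 members lower (8.14% of genes) and 0 higher (9.12%), and edgeR 14 lower (10.3%) and 0 higher (7.85%). DESeq2 called 7 lower (3.92% of genes), namely Col1a1, Col5a1, Col7a1, Col14a1, Col18a1, Col20a1 and Col22a1, and 0 higher (3.6%). With a spread shared by the 15 libraries limma called 5 lower (3.69%) and 0 higher (3.75%), and DESeq2 without HGG control 2 called 5 lower (4.93%) and 0 higher (3.22%). The groups did not overlap for 10 lower members (11.7% of genes) and 0 higher (13.0%). Among the lower ones, Col13a1 passed the filter on low values through HGG controls alone (mean 6.05 with the label Sox9-LOF and 21.8 in HGG controls). The direction of its difference was set by the filter. Col10a1 and Col6a5 passed it through the libraries labelled Sox9-LOF alone. The median log2 fold change was -1.23 over the members and 0.01 over all genes, and -0.56 over the members without HGG control 2. By class it was -1.89 for fibrillar chains, all 9 of which were below 0, -1.11 for basement membrane chains and -0.58 for the others.

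Col22a1, a chain of muscle and tendon junctions, was at 18.7, 13.6 and 13.4 with the label Sox9-LOF, against 59.5, 55.4 and 59.7 in HGG controls, a log2 difference of -1.88 (SE 0.38, adjusted p = 0.143). Col7a1, the anchoring fibril chain, was at 11.7, 18.2 and 35.6, against 126, 109 and 82.4, a difference of -2.34 (SE 0.48, adjusted p = 0.143). Col20a1 was at 95.9, 135 and 193 with the label Sox9-LOF, against the HGG controls above, a difference of -3.52 (SE 0.77, adjusted p = 0.144). These 3 had the smallest p of the members, and their groups did not overlap. Col1a1 differed by -1.97 (SE 0.58, adjusted p = 0.193), by -1.31 without HGG control 2, Col18a1 by -2.02 (SE 0.62, adjusted p = 0.2) and Col5a1 by -1.82 (SE 0.59, adjusted p = 0.212), by -1.11 without HGG control 2. Among the most abundant chains, Col1a2 differed by -2.56, Col16a1 by -1.54, Col14a1 by -2.44 and Col4a1 by -1.04, with adjusted p of 0.275, 0.34, 0.357 and 0.515.

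HGG Sox9-GOF was set against the same HGG controls, so its values are not independent of those above. Most chains again had lower values and Col12a1 a higher one, and none passed limma. Limma called 0 of 35 members and 0.0% of 15092 genes, and edgeR 0 members and 0.0% of genes. At an unadjusted p under 0.05, limma had 12 lower (11.0% of genes) and 2 higher (11.7%), and edgeR 18 lower (11.7%) and 2 higher (10.5%). DESeq2 called 12 lower (6.85% of genes) and 1 higher (6.73%), Col12a1. Without HGG control 2 it called 9 lower (4.03%) and 1 higher (5.08%), and limma with a spread shared by the 15 libraries called 8 lower (7.88%) and 2 higher (7.12%). The groups did not overlap for 15 lower members (16.2% of genes), among them Col1a1, Col1a2, Col3a1, Col5a1 and Col5a2 of the fibrillar class, and for 2 higher ones (14.6%), Col12a1 and Col25a1. The lower ones include Col13a1, which passed the filter on low values through HGG controls alone (mean 6.17 in HGG Sox9-GOF and 21.8 in HGG controls). The direction of its difference was set by the filter. The median log2 fold change was -1.45 over the members and 0.03 over all genes, and by class -2.13, -1.26 and -1.08 for fibrillar, basement membrane and other chains.

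Col7a1 came nearest to the threshold, at 12.9, 11.0 and 15.8 in HGG Sox9-GOF, against 126, 109 and 82.4 in HGG controls, a log2 difference of -2.88 (SE 0.36, adjusted p = 0.059). Col12a1 was at 925, 453 and 427 in HGG Sox9-GOF, against 183, 178 and 58.2 in HGG controls, a difference of 2.20 (SE 0.54, adjusted p = 0.0876). Neither gene overlapped between the groups. Col1a1 differed by -2.13 (SE 0.57, adjusted p = 0.1), Col5a1 by -2.18 (SE 0.62, adjusted p = 0.111) and Col4a2 by -1.78 (SE 0.51, adjusted p = 0.113). Col18a1 and Col20a1 differed by -2.10 and -2.71 (adjusted p = 0.121 each). Col1a2, Col4a1, Col16a1 and Col14a1 differed by -2.64, -1.98, -1.45 and -2.51, with adjusted p of 0.179, 0.196, 0.247 and 0.278. In both HGG comparisons fold changes ran with base composition: across genes, Spearman's rho of fold change with transcript GC content was -0.49 for Sox9-LOF and -0.60 for Sox9-GOF, and the members tested had a median GC of 54.8% and 55.1%, against 50.2% over all genes. After correction of each library for GC content and length the median over the members was -1.10 for Sox9-LOF and -1.14 for Sox9-GOF. Of the marker lists limma made no call in either comparison, as for all genes. With the label Sox9-LOF, DESeq2 called 1 of 14 listed pericyte and 1 of 12 choroid plexus markers lower. In HGG Sox9-GOF it called 2 of 16 fibroblast and 1 of 14 pericyte markers higher and 1 of 12 choroid plexus markers lower. Of all genes it called 3.92% lower and 3.6% higher with the label Sox9-LOF, and 6.85% and 6.73% in HGG Sox9-GOF. Their part in the collagen values was not tested. Of the 33 listed genes that make and cross-link collagen DESeq2 called 3 lower and 0 higher with the label Sox9-LOF. In HGG Sox9-GOF it called 4 lower and 1 higher, beside the same shares of all genes.

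**Figure D5:**
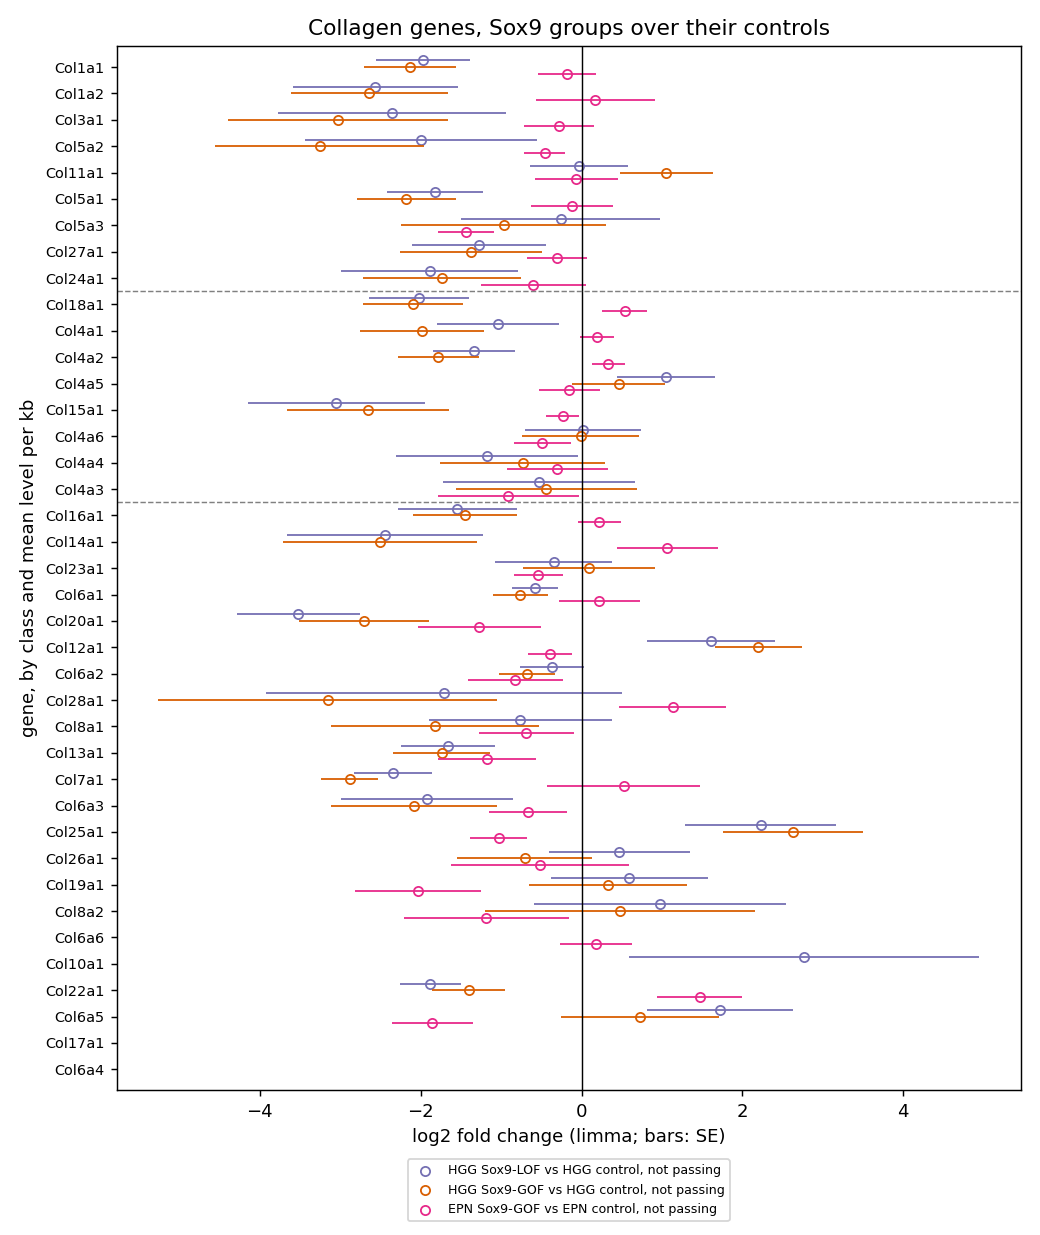
Log2 fold change of the chains (horizontal axis; bars are standard errors) in EPN Sox9-GOF against EPN control, and in HGG Sox9-LOF and HGG Sox9-GOF against HGG control. No point passes an adjusted p of 0.05, and those of both HGG comparisons, which share their controls, lie mostly left of 0.

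EPN Sox9-GOF was compared with EPN controls, where Sox9 differed as in the label. The abundant chains were close in both groups, and none passed the test. Limma called 0 of 36 members and 0.0% of 14591 genes, and edgeR 0 members and 0.0% of genes. At an unadjusted p under 0.05, limma had 4 lower (10.7% of genes) and 1 higher (4.31%), and edgeR 4 lower (11.1%) and 0 higher (3.01%). DESeq2 called 2 lower (4.76% of genes), Col5a3 and Col6a5 (adjusted p = 0.00518 and 0.0463), and 0 higher (0.677%). The groups did not overlap for 4 lower members (13.9% of genes), Col5a3, Col6a5, Col19a1 and Col25a1, and for 1 higher (7.14%), Col22a1. The median log2 fold change was -0.30 over the members and 0.04 over all genes, and 0.02 over the members after correction for GC content and length.

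Col5a3, a minor type V chain, was at 119, 179.6 and 208 in EPN Sox9-GOF, against 679, 494 and 292 in EPN controls, a log2 difference of -1.44 (SE 0.35, adjusted p = 0.16). Col6a5 was at 3.61, 6.98 and 5.76, against 19.0, 29.3 and 20.2, a difference of -1.85 (SE 0.50, adjusted p = 0.171). Col19a1 was at 5.05, 0.872 and 12.5, against 19.0, 18.0 and 29.6, a difference of -2.04 (SE 0.79, adjusted p = 0.285). Col6a5 and Col19a1 were under 30 normalized counts in each library and passed the filter on low values through EPN controls alone (mean 5.45 in EPN Sox9-GOF and 22.8 in EPN controls for Col6a5, and 6.13 and 22.2 for Col19a1), so that the direction of their difference was set by it. Col25a1 differed by -1.03 (SE 0.35, adjusted p = 0.231) and Col22a1 by 1.47 (SE 0.53, adjusted p = 0.254). Of the abundant chains, Col1a1 averaged 14461 ± 5480.1 in EPN Sox9-GOF and 16749 ± 5923 in EPN control libraries (SD, n = 3 each), a difference of -0.18 (SE 0.36, adjusted p = 0.859). Col18a1 averaged 15065 ± 3374 and 10771 ± 2885 in the same order, a difference of 0.54 (SE 0.28, adjusted p = 0.427). Col14a1, Col4a1, Col16a1 and Col1a2 differed by 1.07, 0.19, 0.22 and 0.17, with adjusted p of 0.487, 0.733, 0.754 and 0.94. Of the markers tested, all 14 endothelial, 12 of 13 fibroblast and meninges and 11 of 13 pericyte and smooth muscle markers had values below 0, with medians of -0.58, -0.95 and -0.70. Limma called 0 of them, and DESeq2 called 1 of each list lower and 1 pericyte marker higher. Of all genes DESeq2 called 4.76% lower and 0.677% higher. Their part in the collagen values was not tested.

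Whether Sox9-GOF acted differently in the models was tested as the GOF effect in EPN minus that in HGG. Limma called 2 of 36 members, Col22a1 higher (2.85% of 15145 genes) and Col12a1 lower (3.23%). In both directions the members were near the share over all genes. Col12a1 averaged 1623 ± 148 in EPN Sox9-GOF and 2308 ± 851 in EPN controls, and 602 ± 280.5 in HGG Sox9-GOF and 139.7 ± 70.6 in HGG controls (SD, n = 3 each). The difference of effects was -2.59 (SE 0.65, adjusted p = 0.0429). Col22a1 was at 119.7, 97.7 and 114 in EPN Sox9-GOF, against 18.0, 44.0 and 82.5 in EPN controls, and at 30.9, 11.7 and 25.4 in HGG Sox9-GOF, against 59.5, 55.4 and 59.7 in HGG controls. It was thus higher with GOF in EPN and lower in HGG, without overlap in either model, and the difference of effects was 2.87 (SE 0.72, adjusted p = 0.0433). Col25a1 had the sign of Col12a1, with a difference of -3.66 (SE 0.99, adjusted p = 0.0536). With the label Sox9-LOF, Col12a1 was at 293, 1140 and 167, Col25a1 at 217, 103 and 334 and Col22a1 at 18.7, 13.6 and 13.4. Values on the same side of the HGG controls thus also occurred in libraries labelled Sox9-LOF. For Col4a2, Col18a1, Col7a1 and Col1a1 the difference was 2.11, 2.63, 3.41 and 1.96, with adjusted p of 0.0551, 0.057, 0.0884 and 0.11. The median was 1.10 over the members and -0.03 over all genes, and DESeq2 called 11 members higher (7.28% of genes) and 2 lower (7.81%). In the same contrast 13 of 14 fibroblast and meninges markers were below 0 (median -1.90, 2 called lower by limma) and 12 of 14 pericyte and smooth muscle markers (median -1.09, 1 called lower). Their part in the result was not tested. The limma calls rested on single libraries: leaving out 1 library left 0 to 11 of them, and without HGG control 2 they were Col4a2 higher and Col12a1 lower. With the replicate block they were Col18a1 higher and Col12a1 lower, and none was left after correction for GC content and length or without the filter on low values.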

How the data were processed

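Poly(A) RNA from brain tumour tissue of 15 mouse libraries had been sequenced with a stranded TruSeq kit from 300 ng of total RNA, per the labels' protocols. The submitters' processing notes list mm10 as the build and, as tools, DESeq2 1.30.1, FastQC 0.11.7, MultiQC 1.11 and STAR 2.5.0a. No source used here gives the counting tool, strand setting or annotation, which leaves uncertain the reads of the 12 members whose exons overlap another gene (among them Col4a1 with Col4a2). The authors deposited 3 tables of a signal per gene, counts divided by a size factor of each library. Whole reads were recovered within 0.001 read for 100% of values, and depth was 4665428 to 14119140 reads (median 10578708). As the values were normalized, limma was the main test. The HGG controls are the same libraries in both HGG tables. Depth limits low genes most in HGG control 2, where 1 read is worth 2.25 normalized counts in the Sox9-GOF table.

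Members and lists were chosen with earlier results of these data known. Limma 3.58.1 (R 4.3.3) was run per table on log2(normalized count + 1) for genes averaging 10 or more. P-values were adjusted by Benjamini-Hochberg over all genes, and the threshold was 0.05. Fold changes on this scale understate low genes. Comparisons between models and the levels printed used reads put on 1 scale for all libraries (median of ratios). DESeq2 1.42.0 and edgeR 4.0.16 were run on the recovered reads. The fits were tried on counts simulated for EPN Sox9-GOF against EPN control, with the same spread setting for all genes and libraries. That simulation does not cover the uneven HGG controls. Chain ratios were tested by exact permutation of libraries. Members described in full were, per comparison, the 6 with the smallest p and the 2 of highest level per kilobase in each class, and others are given by range or stated to be picked with their values in view. Of other lists, up to 4 genes by smallest p are named. Lengths and GC came from a GENCODE annotation of GRCm38, for 98.3% of symbols, and promoters from RefSeq. The replicate number was checked as a pairing. Deviations of same-numbered libraries correlated at 0.18, 0.44 and 0.22 between HGG Sox9-GOF and HGG controls, so these may be paired. However, HGG Sox9-GOF 1 and HGG control 3, of unlike number, correlated at 0.295. For the other pairs of groups the same-numbered values were not above 0.1 throughout. Libraries were grouped by title. Figures were drawn with matplotlib 3.10.9.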

Additional observations from a re-analysis of the deposited data

Results flagged for a closer look

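Col12a1, a fibril-associated chain, differed between the models in its response to Sox9-GOF, by -2.59 on the log2 scale (limma interaction, adjusted p = 0.0429). This was 1 of 2 calls among 36 members, near the share over all genes (2.85% higher and 3.23% lower). Col12a1 levels are given here by library. It was at 1460.0, 1748 and 1661 in EPN Sox9-GOF, against 3163, 2300.2 and 1461 in EPN controls, and at 925, 453 and 427 in HGG Sox9-GOF, against 183, 178 and 58.2 in HGG controls. HGG Sox9-GOF and HGG controls did not overlap, and the EPN groups did. With the label Sox9-LOF Col12a1 was at 293, 1140 and 167, so values above the HGG controls were not particular to Sox9-GOF. The call was kept in DESeq2 (adjusted p = 0.00201) and edgeR (adjusted p = 0.0429). It was lost in 9 of 12 limma fits that left out 1 library (adjusted p = 0.0272 to 0.0934) and without a filter on low values (adjusted p = 0.0511). It was also lost with a spread shared by 15 libraries (adjusted p = 0.0716) and after GC content and length correction (-1.58, adjusted p = 0.267).

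Col22a1, a chain of muscle and tendon junctions, differed the other way, by 2.87 (limma interaction, adjusted p = 0.0433). It was higher with GOF in 3 of 3 EPN libraries and lower in 3 of 3 HGG libraries than in any of their controls. With the label Sox9-LOF Col22a1 was also below all HGG controls, at 18.7, 13.6 and 13.4. The call was lost in 11 of 12 limma fits that left out 1 library (adjusted p = 0.0415 to 0.0905), among them that without HGG control 2 (adjusted p = 0.0663). It was also lost with the replicate block (adjusted p = 0.067), without a filter on low values (adjusted p = 0.0602), in edgeR (adjusted p = 0.0567) and after GC content and length correction (adjusted p = 0.0696). It was kept in DESeq2 (adjusted p = 0.00477) and in limma with a spread shared by 15 libraries (adjusted p = 0.0251). Annotated antisense transcription overlaps the exons of Col22a1, and the strand setting of the counts is not given in the sources used here.

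Col25a1, a membrane-spanning chain, was lower with GOF in EPN, at 20.2, 36.6 and 24.0, against 51.8, 55.2 and 62.2 in EPN controls, and higher in HGG, at 238, 240.0 and 281, against 9.52, 51.3 and 131 in HGG controls. Neither pair of groups overlapped. With the label Sox9-LOF Col25a1 was at 217, 103 and 334, so high values in HGG were not particular to Sox9-GOF. The difference of effects, -3.66, missed the threshold (limma interaction, adjusted p = 0.0536). It passed in DESeq2 (adjusted p = 0.0144), and in limma with a spread shared by 15 libraries (adjusted p = 0.0354). It also passed in 2 of 12 limma fits that left out 1 library (adjusted p = 0.0124 to 0.121). It missed in edgeR (adjusted p = 0.0818) and after GC content and length correction (-2.83, adjusted p = 0.146).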

How the results depend on the processing

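For the libraries labelled Sox9-LOF against HGG controls, where limma called 0 members, DESeq2 called 7, a spread shared by 15 libraries gave 5, DESeq2 without HGG control 2 gave 5 and a spread shared by 14 libraries without it gave 3. The median of -1.23 was -0.56 without HGG control 2 (range -1.72 to -0.56 when 1 library was left out), -0.49 in DESeq2 and -0.56 with the shared spread without that library. For HGG Sox9-GOF the 0 calls became 13 in DESeq2, 10 with the spread of 15 libraries, 10 in DESeq2 and 5 with the shared spread without HGG control 2, and the median ran from -1.97 to -1.0 with 1 library left out. For EPN Sox9-GOF DESeq2 called 2, and the median ran from -0.53 to -0.12 with 1 library left out and was 0.0209 after GC content and length correction. Between the controls the 11 calls became 7 under the replicate block, 3 to 16 with 1 library left out, and 20 (DESeq2) and 19 (shared spread) without HGG control 2. The median of 1.44 was 0.48 in DESeq2 and 0.52 in edgeR. Between the Sox9-GOF libraries the median of 2.33 was 1.84 in DESeq2, 1.86 without a filter on low values, 2.89 after the GC and length correction and 1.86 to 2.46 with 1 library left out. For the difference of GOF effects the 2 calls became 13 in DESeq2, 4 with the shared spread, 9 in DESeq2 without HGG control 2, 0 without a filter, 0 after the GC and length correction and 0 to 11 with 1 library left out, and the median was 1.73 in edgeR. The replicate block moved the calls between the controls from 11 to 7 and those between the Sox9-GOF libraries from 25 to 26. It left the other counts as they were, but in the difference of effects Col18a1 took the place of Col22a1. The cause of these shifts was not tested. For most of these alternatives the share of all genes called is not given here, so shifts in the counts cannot be read as particular to collagen. In EPN Sox9-GOF against EPN control, Col1a1 at -0.18 turned to 0.0928 and 0.0884 with 1 library left out (range -0.47 to 0.0928) and to 0.18 after the correction, Col1a2 from 0.17 to -0.36 and -0.27 (range -0.36 to 1.13) and Col16a1 to -0.0026 (range -0.0026 to 0.37). None of these had passed a test. The corrected fits, those without HGG control 2 in DESeq2 or with the shared spread, and the comparison of the Sox9-GOF libraries were chosen after seeing the data. Of the summary values 152 were within their limits under an alternative and 44 moved, and of single genes 861 stayed, 92 gained a call, 45 lost one and 6 turned their sign.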

Other observations

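HGG control 1, with 105040 normalized counts of Ttr, had the highest HGG values of Col8a1 (505.5), a network chain of vessels and of the corneal endothelium, Col8a2 (307), Col4a3 (87.3), Col4a4 (107) and Col20a1 (5481). In HGG controls 2 and 3 the same chains were at 96.4 and 19.9, 2.05 and 12.8, 8.20 and 3.55, 10.3 and 7.10, and 1087 and 638. The library labelled Sox9-LOF 3 had 23243 of Ttr, 120.2 of Col8a1, 65.7 of Col8a2, 22.3 of Col4a3, 17.8 of Col4a4 and 192.5 of Col20a1. HGG Sox9-GOF 3 had 9150 of Ttr, 93.8 of Col8a1, 78.0 of Col8a2, 13.2 of Col4a3, 14.9 of Col4a4 and 284 of Col20a1. The chains did not follow Ttr throughout. In both libraries Col20a1 was below HGG controls 2 and 3, and EPN Sox9-GOF 3 had 417 of Col8a1 with 4.80 of Ttr. The genes of this paragraph were chosen after their values were seen.

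In the library labelled Sox9-LOF 3, Col10a1 was at 284 and the other 14 libraries had at most 5.76. Of the cartilage collagens that were left out, Col11a2 was at 511 in that library and at 145 and 162 in the other libraries labelled Sox9-LOF, Col9a3 at 486 and at 180.1 and 388, and Col9a2 at 128 and at 113 and 118. Col2a1 was at 61.2 and at 29.2 and 125, and Col9a1 likewise lay between the other libraries of its group.

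Col26a1, a chain with roles in testis and ovary, was at 99.9 in EPN Sox9-GOF 3 and at 2.88 and 10.5 in the other libraries of that group.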
